A study of Homo sapiens with 4 samples.

Results

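A set of 39 genes that encode subunits of the human proteasome and its activator caps was examined in RNA-seq data from cells labelled NB4, with and without the degrader GNE-987. They were the rows of the deposited table of 58735 genes whose identifiers carry these symbols in GENCODE release 44, and all 39 were found. The NB4 line was derived from a patient with acute promyelocytic leukemia. GNE-987 is a bifunctional molecule that binds BET proteins and recruits a ubiquitin ligase to them, so that the proteasome degrades them. The comparison was between 2 control libraries from cells without treatment and 2 libraries from cells given 25 nM GNE-987 for 24 h, all of the same labelled line. Groups follow the sample labels, while dose and duration follow the study's description of the experiment. A vehicle is not named in the labels. The labels do not say whether the 2 libraries of a group came from separate cultures, so the P values measure only the spread between these libraries, which may be technical.

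The proteasome is the protease that degrades proteins marked with ubiquitin. Its core is a barrel of stacked rings, the outer ones built from alpha subunits, which gate the entrance, and the inner ones from beta subunits, some of which carry the cutting sites. The regulatory particle sits on the barrel and has a base, with a ring of ATPases that unfold substrates, and a lid, which removes ubiquitin chains. Other activators can take its place, and cells exposed to interferon swap the catalytic beta subunits for immunoproteasome subunits, which favour peptides for presentation on MHC class I.

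The values were FPKM, which are fragments scaled by the length of the gene and by the reads of the library. Levels of different genes can be set side by side within a library. A comparison between libraries depends on the scaling, since the FPKM totals were 218486 and 227275 for control and 624137 and 612335 for GNE-987. The FPKM values rise in steps of whole reads, which made the reads recoverable: they summed to 19471013 and 19270375 on genes for control and to 12428480 and 12935040 for GNE-987. The deposited values had been scaled to 23024012, 22120718, 8360488 and 8826052 reads, so scaling to the recovered reads in place of these lowers log2 fold changes by 0.78. The drop is smaller for genes of low level, because 0.1 FPKM was added before the log. Genes of the mitochondrial genome held 16.1% and 19.4% of the FPKM total for control and 40.6% and 39.7% for GNE-987, and GAPDH was at 398 and 432 against 1501 and 1499 FPKM. A direction given for a gene here is that of the deposited scaling, and turns under another of the 7 scalings are stated beside the larger values. Values near 0 have no fixed sign, since all 36 tested members were below 0 with GAPDH set equal and 24 were above 0 with centring on protein-coding genes. The markers did not match a promyelocyte. Of 5 myeloid granule markers, ELANE and CTSG were at 0 in both control libraries and MPO was at 0.0246 and 0 FPKM, and the summed level of the 5 was 2.44 and 2.81 FPKM in control and 25.6 and 23.4 FPKM in GNE-987 libraries. The summed level of 6 erythroid markers was 273 and 282 FPKM in control and 287 and 241 FPKM in GNE-987 libraries, with GATA1, an erythroid transcription factor, at 124 and 122 FPKM in the control libraries. The cells are therefore called by their label only, and the part of these differences in the results below was not tested.

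At the deposited scaling the subunits did not move as one block. PSME1 and PSME2, the alpha and beta subunits of the PA28 activator, rose, while PSME3, the gamma subunit of the same activator family, fell. The ATPase genes PSMC2 and PSMC6 and the lid genes PSMD6, PSMD7, PSMD12 and PSMD14 also fell. Among the alpha subunit genes PSMA6 rose from a very low level, and no gene of a beta subunit passed the threshold. PSME1, PSME2 and PSMA6 were lower, not higher, in GNE-987 libraries when GAPDH was set equal in all libraries.

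Of the 39 genes, 36 had a mean of at least 0.5 FPKM and were tested, while PSMA2, PSMB8 and PSMB9 were too low. A gene was called where limma gave an unadjusted two-sided P under 0.05 and the fold was over 2 or under 0.5, on the scale of log2(FPKM + 0.1). At the deposited scaling 3 members were called higher, 7 were called lower and 26 were not called. Over all 16668 tested genes 33.6% were called higher and 24.9% lower, and over the 10996 protein-coding genes among them 24% were called higher and 31.7% lower. At this scaling the shares of members called higher, 8.33%, and lower, 19.4%, thus lay below both backgrounds. Among protein-coding genes with 10 FPKM or more on average, a level most members reach, 26.8% were called higher and 20.9% lower. Scaling to the recovered reads left 0 members called higher and 13 called lower, beside 25.1% and 40% of all tested genes. Setting GAPDH equal left 0 members called higher and 32 called lower, beside 18.2% and 58.4%. Of protein-coding genes 72.8% were then called lower, and 70.1% of those with 10 FPKM or more. Members called higher and lower were 0 and 26 after TPM rescaling, beside 19.9% and 52.5% of all tested genes. Of protein-coding genes 66.2% were called lower after TPM rescaling, and 60.7% of those with 10 FPKM or more. With GAPDH and TPM scaling, the 32 and 26 of 36 tested members called lower were thus larger shares than in each of these backgrounds. After quantile normalization the numbers were 2 and 9, beside 25.4% and 32.8% of all tested genes. They were 4 and 6 with median-ratio scaling, beside 35.2% and 22.4%, and 7 and 6 with centring on protein-coding genes, beside 39.4% and 17.2%. Of the 26 members not called at the deposited scaling, 18 had an adjusted P under 0.05 with a fold within the threshold, 12 of them above 0 and 6 below (limma, Benjamini-Hochberg adjusted over all tested genes).

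Most of the subunit genes were strongly expressed. Mean control levels ran from 0 FPKM for PSMB8 to 186 FPKM for PSMB3, with a median of 28.8 FPKM. The 39 genes summed to 1654 and 1599 FPKM in control and to 2002 and 2000 FPKM after GNE-987. The median log2 fold change of the 36 tested members was 0.04, with 19 above 0 and 17 below, while the median of all tested genes was 0.17 and that of the protein-coding genes -0.29. That member median was -0.74 after scaling to the recovered reads, where the median of all tested genes was -0.57 and that of the protein-coding genes -1.05. With GAPDH set equal it was -1.80, where the median of all tested genes was -1.59 and that of the protein-coding genes -2.08. Under both scalings the member median thus lay below that of all tested genes and above that of the protein-coding genes. For protein-coding genes with 10 FPKM or more on average, the median was 0.11 at the deposited scaling. It was -0.67 after scaling to the recovered reads and -1.74 with GAPDH set equal, so the member median lay below it each time. In bulk RNA, less RNA of these genes per cell and fewer cells that express them cannot be told apart.

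**Figure D1:**
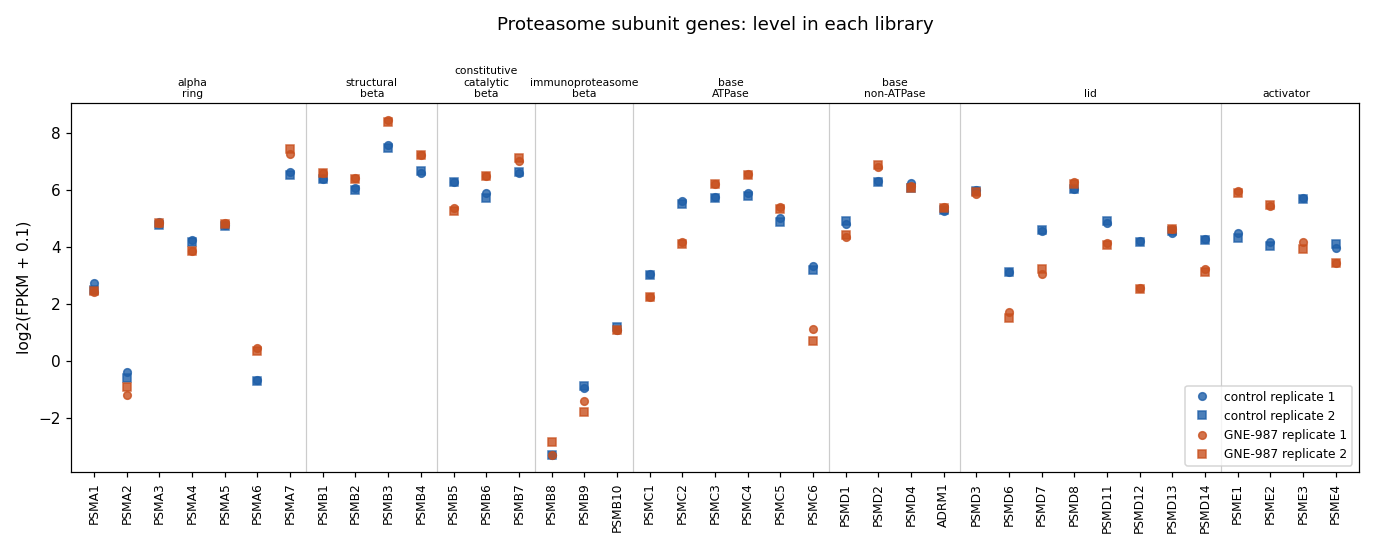
Level of each of the 39 subunit genes in each library, as log2(FPKM + 0.1) on the vertical axis, with the genes grouped by their place in the complex on the horizontal axis. Blue symbols are control and orange symbols GNE-987 libraries, circles replicate 1 and squares replicate 2. The structural beta genes are the highest group, PSMB8, PSMB9, PSMA2 and PSMA6 lie near the bottom, and the colours separate most widely for PSMC6, PSMD12, PSME1 and PSME3.

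Of the alpha ring genes, PSMA1, PSMA3 and PSMA5 were near their control level at the deposited scaling, while PSMA6 and PSMA7 were above it. The class median was 0.04 on the log2 scale over 6 tested genes, with 1 gene called higher and 0 lower. PSMA7 was the most abundant of them, at a mean of 96.1 ± 5.48 FPKM in control (SD, n = 2) and at 153 and 175 FPKM in GNE-987 libraries, a log2 difference of 0.77 that missed the fold threshold and was -1.08 with GAPDH set equal (SE 0.09, limma adjusted P 0.0024). PSMA4 was the lowest in fold change, at 18.6 and 17.9 against 14.3 and 14.4 FPKM, a log2 difference of -0.34 (SE 0.05) that was 0.04 when the median of the protein-coding genes was set to 0. PSMA1, PSMA3 and PSMA5 lay between -0.18 and 0.06, and all 3 were called lower with GAPDH scaling and above 0 with centring on protein-coding genes. Of the exon bases of PSMA1, 26.7% are shared with a same-strand protein-coding entry, so its value is uncertain as well.

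PSMA6, the only alpha ring gene that was called, rose from 0.527 and 0.514 to 1.25 and 1.17 FPKM. Its log2 fold change was 1.08 (SE 0.18, limma adjusted P 0.0074), but it was 0.38 after scaling to the recovered reads, -0.23 after rescaling to TPM and -0.57 with GAPDH set equal. The recovered reads behind it were 79 and 74 for control and 68 and 67 for GNE-987, the fewest of any called member. Annotation makes this value uncertain, since 14.1% of its exon bases are shared with a same-strand protein-coding entry and 4 pseudogenes in the table held a further 20 and 33 reads for control and 16 reads in each GNE-987 library. PSMA2 was untested at 0.651, 0.551, 0.336 and 0.425 FPKM and shares 17.2% of its exon bases with another same-strand entry.

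The structural beta genes, which build the inner rings without cutting sites of their own, all had values above 0 at the deposited scaling, with a class median of 0.48, and 0 of 4 were called, but all 4 were below 0 with GAPDH scaling. PSMB3 was at 193 and 179 FPKM in control and at 354 and 338 FPKM in GNE-987 libraries, so the groups did not overlap, and its log2 fold change of 0.90 (SE 0.06, limma adjusted P 0.00057) was just inside the threshold. It was called higher with median-ratio scaling, at 1.02, but was -0.68 after quantile normalization, -0.57 after TPM rescaling and -0.96 with GAPDH set equal. PSMB1 had the smallest difference of the class, from 83.8 and 83.7 to 96.9 and 97.7 FPKM (log2 0.22, SE 0.04), and it was below 0 under 4 of the 7 scalings, down to -1.64.

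The catalytic beta genes parted ways. PSMB6, which carries the caspase-like site, was at 58.8 and 53.2 FPKM in control and at 89.7 and 89.9 FPKM in GNE-987 libraries. PSMB7, with the trypsin-like site, was at 97.6 and 98.6 against 131 and 139 FPKM. PSMB5, which carries the chymotrypsin-like site that bortezomib binds, went the other way, from 77.9 and 76.9 to 40.8 and 38.3 FPKM. The log2 differences were 0.68 (SE 0.06), 0.46 (SE 0.05) and -0.97 (SE 0.05), all with a limma adjusted P under the threshold and none past the fold. The values of PSMB6 and PSMB7 were below 0 after quantile normalization, scaling to recovered reads, TPM rescaling and GAPDH scaling, whereas PSMB5 stayed below 0 under all 7 scalings and was called lower under 4. PSMB5 was also called lower, at -1.02, without GNE-987 replicate 1.

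The immunoproteasome RNAs were scarce beside those of their constitutive counterparts. PSMB8, the counterpart of PSMB5, had 1 read in GNE-987 replicate 2, which is 0.0378 FPKM, and was listed at 0 in the other libraries. That read count assumes an exon length of 3026 bases found by search, against 3480 in release 44. The count and the limits drawn from it are therefore uncertain. A count of 0 still allows 3 reads, or up to 0.0435 and 0.0453 FPKM in the control libraries and 0.120 FPKM in GNE-987 replicate 1, for counting error only. PSMB9, the counterpart of PSMB6, was at 0.410 and 0.441 FPKM in control and at 0.272 and 0.184 FPKM in GNE-987 libraries, on 29, 30, 7 and 5 recovered reads. PSMB10, the counterpart of PSMB7, was at 2.02 and 2.15 against 2.00 and 2.02 FPKM, with overlapping groups and a log2 difference of -0.05 (SE 0.11) that was above 0 with median-ratio scaling and with centring on protein-coding genes. Exon bases shared with a same-strand entry make up 39.4% of PSMB10.

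A ratio within a library is the same whatever constant the library is multiplied by, as in all of the scalings except quantile normalization. PSMB9 was 0.698% and 0.830% of PSMB6 in control and 0.304% and 0.205% after GNE-987. PSMB10 was 2.07% and 2.18% of PSMB7 in control and 1.53% and 1.45% after GNE-987. For both pairs, each GNE-987 library lay below each control library, but after quantile normalization the log2 fold change of PSMB10 was 0.08 above that of PSMB7, in place of 0.51 below it as here. PSMB8 was 0.0988% of PSMB5 in GNE-987 replicate 2, on its 1 read, and the 3 reads that a count of 0 allows would be 0.0558% and 0.0588% in control and 0.293% in GNE-987 replicate 1. With 2 libraries against 2 no exact permutation test can reach a two-sided P under 0.05, so no test is given for the ratios.

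The 6 ATPases of the base form a single mixed ring. Their fold changes spread further apart than those of any other class except the activators, over 3.05 log2 units. PSMC6, also called Rpt4, fell the most of all members, from 10.1 and 8.98 to 2.05 and 1.53 FPKM. Its log2 fold change was -2.36 (SE 0.17, limma adjusted P 0.00079). PSMC2, or Rpt1, fell from 48.3 and 45.8 to 17.7 and 16.9 FPKM, with a log2 fold change of -1.44 (SE 0.05, limma adjusted P 0.00023). Both were called lower under all 7 scalings and in all 19 fits, which are the one at the deposited scaling and 18 alternatives. PSMC4, or Rpt3, was the highest ATPase gene in GNE-987 libraries, at 59.7 and 55.6 FPKM in control and at 94.2 and 91.5 FPKM in GNE-987 libraries. Its log2 difference of 0.69 (SE 0.05) was below 0 under 4 scalings. PSMC3 and PSMC5 had values of 0.47 and 0.44, which were below 0 with GAPDH scaling, and PSMC1 one of -0.79, and none of these was called. Of the exon bases of PSMC1, 76.1% lie opposite NRDE2, which was at or under 0.641 FPKM in every library.

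Set against PSMC4 within each library, PSMC6 went from 0.168 and 0.161 to 0.0217 and 0.0167, and PSMC2 from 0.810 and 0.823 to 0.188 and 0.185. The 2 control values lay close together for each pair and far from the GNE-987 values. These pairs set the ATPase genes called lower against the one highest in fold change, so their separation follows from those values and is no separate finding. PSMC6 also went down against PSMC2, from 0.208 and 0.196 to 0.115 and 0.0903.

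The base subunits without ATPase activity, which include the scaffold and ubiquitin receptor proteins, had a class median of 0.04, with 0 of 4 called. PSMD2 was at 79.7 and 78.7 FPKM in control and at 111 and 116 FPKM in GNE-987 libraries (log2 0.52, SE 0.04, below 0 under 4 scalings). PSMD1 was at 27.9 and 29.7 against 20.1 and 21.4 FPKM (log2 -0.47, SE 0.06). The ubiquitin receptors PSMD4 and ADRM1 had log2 differences of -0.05 and 0.12, with a limma adjusted P of 0.61 and 0.070, and these were 0.34 and 0.51 with centring on protein-coding genes and -1.90 and -1.73 with GAPDH set equal.

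The lid stood lowest of the classes. Its median log2 fold change was -0.92 over 8 tested genes, 4 of which were called lower and 0 higher, and it lay 0.97 below the median of all members at the deposited scaling and between 0.61 and 0.97 below it over the 7 scalings. PSMD12, also called Rpn5, fell from 18.2 and 17.8 to 5.84 and 5.70 FPKM, with a log2 fold change of -1.62 (SE 0.06, limma adjusted P 0.0002). PSMD6, or Rpn7, fell from 8.54 and 8.48 to 3.16 and 2.76 FPKM, with a log2 fold change of -1.5 (SE 0.10, limma adjusted P 0.00061). PSMD7, or Rpn8, is the partner of the lid's deubiquitinase. It fell from 23.7 and 23.8 to 8.25 and 9.18 FPKM, with a log2 fold change of -1.44 (SE 0.07, limma adjusted P 0.00037). For these 3 genes every GNE-987 library was below every control library by more than the spread within either group, and each was called lower in all 19 fits.

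PSMD14, or Rpn11, is that deubiquitinase, which cuts ubiquitin chains from the substrate as it enters. It fell from 19.2 and 18.8 to 9.35 and 8.67 FPKM, with a log2 fold change of -1.07 (SE 0.06, limma adjusted P 0.00052). It lay just outside the fold threshold, was called in 15 of 19 fits, and was not called with median-ratio scaling, at -0.95, or with centring on protein-coding genes, at -0.68. The other 4 lid genes were not called. PSMD8 was the highest of them in fold change, at 66.0 and 66.1 against 78.7 and 74.8 FPKM (log2 0.22, SE 0.04, below 0 under 4 scalings), PSMD13 and PSMD3 were at 0.10 and -0.07 (0.49 and 0.31 with centring, both below 0 with GAPDH scaling), and PSMD11 was at -0.78. An opposite-strand noncoding entry covers 31.2% of the exon bases of PSMD7, at 1.19 FPKM or less.

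**Figure D2:**
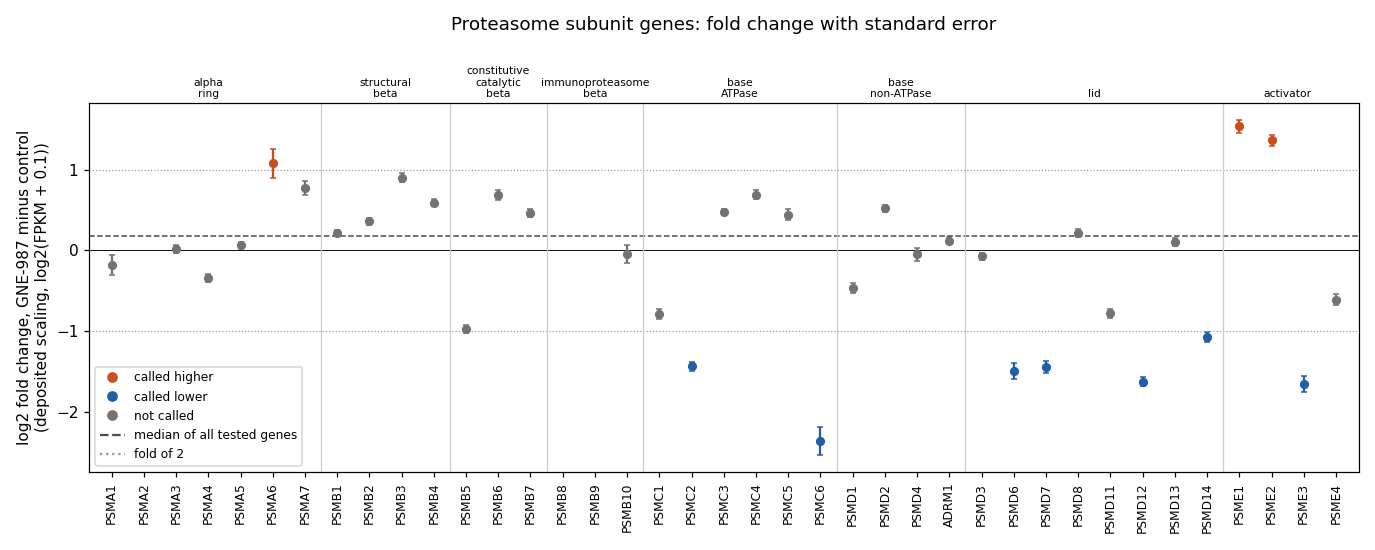
Log2 fold change of each tested member, GNE-987 minus control, at the deposited scaling on the vertical axis, with bars of 1 standard error from limma, and the genes grouped by class. Orange points were called higher, blue points lower and grey points not called, dotted lines mark a fold of 2 and the dashed line the median of all tested genes at 0.17. PSME1 at 1.53 and PSMC6 at -2.36 are the ends of the range, and the lid holds 4 of the 7 blue points. The 3 orange points lie below 0 with GAPDH scaling, while the 7 blue points stay below 0 under all 7 scalings.

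The upstream sequences of PSMC6 and PSMD12, the base and the lid gene that fell the most, are shown because the 2 genes moved together. They are the RefSeq windows on GRCh38.p14 from 250 bases before to 50 bases after the annotated start, at chr14:52706950-52707249 on the plus strand and chr17:67366528-67366827 on the minus strand, and capitals mark matches to the motifs named with them further on.
PSMC6: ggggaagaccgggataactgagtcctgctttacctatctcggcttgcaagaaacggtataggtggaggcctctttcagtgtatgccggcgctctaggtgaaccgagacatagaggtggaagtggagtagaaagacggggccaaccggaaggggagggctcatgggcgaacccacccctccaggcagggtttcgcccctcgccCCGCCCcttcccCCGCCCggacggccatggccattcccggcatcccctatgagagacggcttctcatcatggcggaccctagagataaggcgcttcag
PSMD12: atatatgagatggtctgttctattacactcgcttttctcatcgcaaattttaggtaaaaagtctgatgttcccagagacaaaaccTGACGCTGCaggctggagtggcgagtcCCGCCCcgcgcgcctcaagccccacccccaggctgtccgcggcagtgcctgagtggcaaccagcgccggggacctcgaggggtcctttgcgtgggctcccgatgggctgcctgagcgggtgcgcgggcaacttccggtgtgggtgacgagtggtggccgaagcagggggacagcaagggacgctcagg
The capitals in the PSMC6 window are GC boxes, and those in the PSMD12 window are a core of the antioxidant response element and a GC box.

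The activator genes held both extremes apart from PSMC6. PSME1 rose from 22.5 and 19.8 to 62.5 and 60.1 FPKM, a mean of 21.1 ± 1.92 (SD, n = 2) against 61.3 ± 1.75 (SD, n = 2), and its log2 fold change of 1.53 (SE 0.08, limma adjusted P 0.00039) became 0.75 after scaling to the recovered reads, 0.07 with TPM rescaling and -0.31 with GAPDH set equal. PSME2 rose from 18.1 and 16.2 to 43.2 and 44.8 FPKM, and its log2 fold change of 1.36 (SE 0.07, limma adjusted P 0.00041) became 0.58, -0.11 and -0.49 under the same 3 scalings. The proteins of these genes form a mixed ring that opens the core barrel in the cytosol. Each was called higher under 4 of the 7 scalings and in 15 of 19 fits.

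PSME3 encodes the ring of the nucleus, made of PA28 gamma alone. It fell from 53.2 and 50.8 to 17.9 and 15.2 FPKM, and its log2 fold change of -1.65 (SE 0.10, limma adjusted P 0.0005) lay between -3.50 and -1.26 over the 7 scalings. It was called lower in all 19 fits. PSME4, the large single-chain activator PA200, was at 15.7 and 17.1 against 10.7 and 10.7 FPKM, and its log2 difference of -0.61 (SE 0.07) missed the fold threshold.

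The order of the activator RNAs thus turned round within the libraries themselves, whatever constant they are scaled by. The ratio of PSME1 to PSME3 was 0.423 and 0.389 in control and 3.49 and 3.95 after GNE-987, a mean of 0.406 ± 0.024 against 3.72 ± 0.32 (SD, n = 2 each). PSME2 to PSME3 went from 0.340 and 0.318 to 2.41 and 2.95. PSME1 to PSME2 stayed nearer its control value, at 1.24 and 1.22 against 1.45 and 1.34. For each of these ratios the 2 groups did not overlap, with GNE-987 above control. The ratios to PSME3 set genes called higher against one called lower, so their separation follows from those calls and is no separate finding. After quantile normalization the log2 fold changes of PSME1 and PSME2 still lay 3.18 and 3.13 above that of PSME3.

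**Figure D3:**
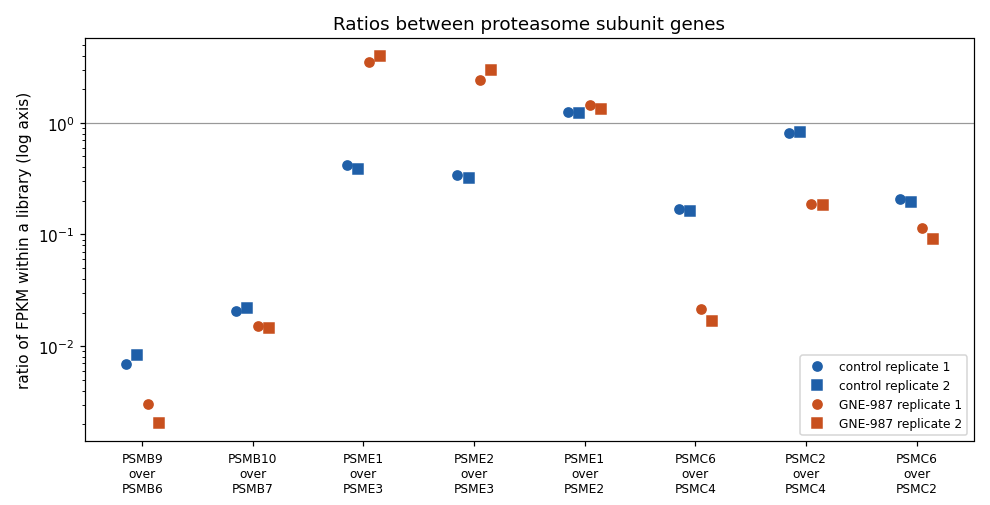
Ratios of FPKM between pairs of subunit genes within each library, on a log axis. Blue symbols are control and orange symbols GNE-987 libraries, circles replicate 1 and squares replicate 2. PSME1 over PSME3 crosses from 0.423 and 0.389 to 3.49 and 3.95, and PSMC6 over PSMC4 goes from 0.168 and 0.161 to 0.0217 and 0.0167.

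PSME1 and PSME2 lie near each other on chromosome 14 and point toward one another, at chr14:24136163-24138967 on the plus strand and chr14:24143362-24147570 on the minus strand in GRCh38, and PSME3 is at chr17:42824385-42843760 on the plus strand. Their RefSeq windows are shown because the first pair rose at the deposited scaling but was below 0 with GAPDH scaling, while the third fell under each scaling. They are at chr14:24135944-24136243, chr14:24146561-24146860 and chr17:42833147-42833446, each on the strand of its gene. They follow the RefSeq starts, and those of PSME2 and PSME3 lie inside the GENCODE spans just given, not at their ends. Capitals mark motif matches on either strand.
PSME1: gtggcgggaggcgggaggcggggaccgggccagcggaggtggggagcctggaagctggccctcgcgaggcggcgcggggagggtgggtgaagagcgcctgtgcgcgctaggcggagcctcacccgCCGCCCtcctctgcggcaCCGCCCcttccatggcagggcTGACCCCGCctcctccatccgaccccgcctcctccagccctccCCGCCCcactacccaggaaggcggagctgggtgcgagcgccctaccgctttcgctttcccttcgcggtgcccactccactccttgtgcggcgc
PSME2: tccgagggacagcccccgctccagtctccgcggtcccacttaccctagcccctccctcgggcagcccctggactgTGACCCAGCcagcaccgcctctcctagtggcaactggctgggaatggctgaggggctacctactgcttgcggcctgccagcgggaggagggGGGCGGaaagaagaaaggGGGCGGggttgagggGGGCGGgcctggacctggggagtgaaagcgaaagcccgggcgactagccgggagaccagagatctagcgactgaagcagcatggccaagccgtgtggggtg
PSME3: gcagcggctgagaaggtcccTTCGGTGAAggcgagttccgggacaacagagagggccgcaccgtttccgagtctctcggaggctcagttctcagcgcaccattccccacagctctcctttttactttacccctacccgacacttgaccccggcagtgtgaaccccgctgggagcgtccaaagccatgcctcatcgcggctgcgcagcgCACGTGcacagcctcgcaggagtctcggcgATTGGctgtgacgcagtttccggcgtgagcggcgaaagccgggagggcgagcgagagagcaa
The windows of PSME1 and PSME2 each held a match to the antioxidant response element core and 3 GC boxes. The window of PSME3 held neither, and its capitals are a match to the gamma-activated sequence, an E-box and a CCAAT box read on the other strand.

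A motif search covered 42 RefSeq windows of 34 member genes. The windows of PSMA7, PSMB1, PSMB6, PSMB7 and PSMD4 were not analysed here. Each motif was searched on both strands as a string of letters, and a match is a description of the sequence, not a binding site. The core of the antioxidant response element, TGACNNNGC, to which NRF1 and NRF2 bind, was in 13 windows of 12 genes, or 31.0% of the windows of members, against 13.8% of 22199 windows of protein-coding genes and 13.3% of all 35116 windows. Those genes were PSMA4, PSMB3, PSMB9, PSMC4, PSMC5, PSMD1, ADRM1, PSMD3, PSMD12, PSME1, PSME2 and PSME4. They include called members of both directions, PSME1 and PSME2 higher at the deposited scaling though not with GAPDH scaling, and PSMD12 lower under each scaling.

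The other motifs were GGGCGG, the GC box, in 71.4% of member windows, 56.3% of protein-coding and 45.0% of all windows, and CCAAT, in 45.2%, 34.7% and 34.6%. The gamma-activated sequence TTCNNNGAA was in 16.7%, 6.79% and 7.66%. The E-box CACGTG was in 4.76%, 8.34% and 7.26%, and TATAAA in 9.52%, 9.47% and 11.5%. Each motif was counted by itself, so bases that belong to matches of more than one motif count for each.

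Members that differed in size also differed in fold change, as a description over genes that share the same 4 libraries. Over the 36 tested members, Spearman's rho of the log2 fold change was -0.58 with exon length, -0.51 with the span of the gene and 0.59 with mean FPKM. Over the 10996 protein-coding genes the same values were -0.18, -0.18 and 0.07. The 7 members called lower had a median exon length of 7311 bases and a median mean level of 14.0 FPKM, and the 26 not called had 3079 bases and 59.7 FPKM. The 3 called higher had 3582 bases and 30.6 FPKM, so by these medians they had longer exons and a lower level than those not called. Their median gene span went the other way, at 4209 bases against 14395 for those not called and 21413 for those called lower. The mean level is taken over all 4 libraries, so it includes the GNE-987 values that enter the fold change. The part of length and level in the fold changes was not tested.

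**Figure D4:**
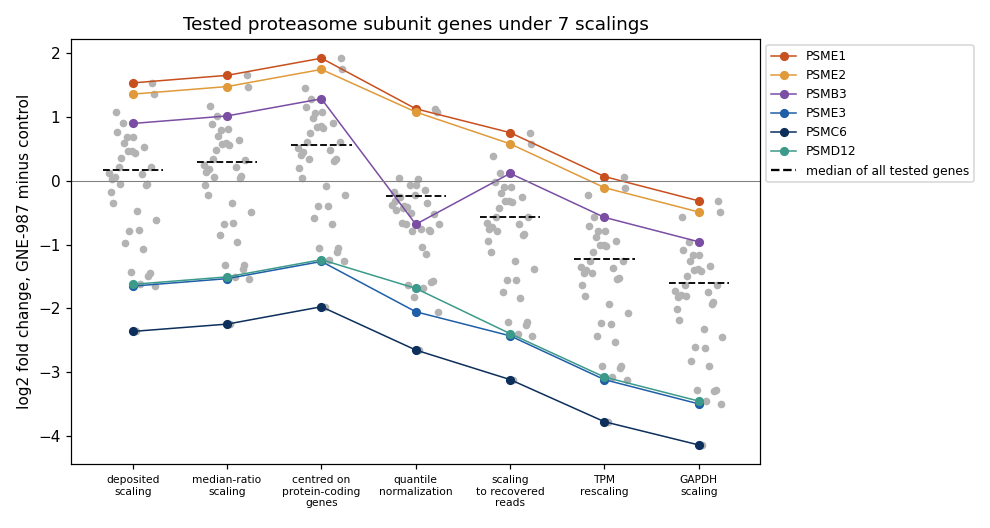
Log2 fold change, GNE-987 minus control, of the tested members under 7 ways of scaling the libraries. Grey points are members, joined coloured points follow 6 of them and dashed bars are the median of all tested genes under the same scaling. PSME1, PSME2 and PSMB3 lie below 0 with GAPDH scaling, at -0.31, -0.49 and -0.96, whereas PSME3, PSMD12 and PSMC6 are at -1.24 or lower under each scaling.

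The other genes of the pathway were counted from lists of 44 genes in 6 groups, of which 42 were tested. Of these, 9 were called higher, 16 lower and 17 not at the deposited scaling, beside 33.6% and 24.9% of all tested genes. With GAPDH set equal 1 was called higher and 33 lower, beside 58.4% of all tested and 72.8% of protein-coding genes called lower.

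The assembly chaperones, which put the rings together and then leave, had a median of -1.28, with 6 of 9 called lower and 0 higher. PSMG1, the partner of PSMG2 in alpha ring assembly, fell from 35.9 and 34.4 to 7.85 and 7.34 FPKM (log2 -2.20, SE 0.06, limma adjusted P 0.00016). PSMG3, the partner of PSMG4, fell from 48.6 and 46.3 to 9.95 and 11.6 FPKM (log2 -2.13, SE 0.09). PSMD5, a chaperone of the base, fell from 31.5 and 34.8 to 6.88 and 8.28 FPKM (log2 -2.12, SE 0.12). All of these were called lower under the 7 scalings. POMP, a chaperone of the assembling core, was at 64.9 and 65.4 against 69.1 and 70.4 FPKM, a log2 difference of 0.10 (SE 0.04) that was -1.75 with GAPDH set equal.

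Among 8 other proteasome parts and bound enzymes, 6 were tested, 3 were called lower and 1 higher, and PSMA8 and PSMB11, the testis and thymus variants of core subunits, were listed at 0 in all 4 libraries. UCHL5, the deubiquitinase held by ADRM1, fell from 19.8 and 19.5 to 4.97 and 5.27 FPKM (log2 -1.92, SE 0.06). ECPAS, a scaffold that binds the proteasome, fell from 21.8 and 23.5 to 8.28 and 9.19 FPKM (log2 -1.37, SE 0.08). SEM1, the smallest lid subunit, was called higher, from 4.61 and 3.91 to 9.57 and 8.79 FPKM (log2 1.09, SE 0.11), but was -0.73 with GAPDH set equal. PSMF1, an inhibitor of the core, was at -0.44 and not called.

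Of the 6 shuttles that carry ubiquitinated proteins to the proteasome, 3 were called lower and 0 higher, with a median of -0.81. RAD23B fell from 52.1 and 53.7 to 16.2 and 16.5 FPKM (log2 -1.69, SE 0.04), UBQLN1 fell by 1.67 and UBQLN4 by 1.13 on the log2 scale.

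The 8 regulators of proteasome genes and of the p97 unfoldase had 2 genes called lower and 1 higher, with a median of 0.24 that was below 0 with GAPDH scaling for each gene of the list. NFE2L1 encodes NRF1, which turns on proteasome genes when the proteasome is inhibited. It fell from 18.8 and 20.7 to 8.03 and 7.94 FPKM (log2 -1.30, SE 0.07, limma adjusted P 0.00043) and was called lower under 6 of the 7 scalings. NGLY1, the glycanase that activates NRF1, fell from 7.78 and 7.54 to 2.30 and 2.18 FPKM (log2 -1.73, SE 0.08). UFD1, a p97 cofactor, was called higher, from 27.4 and 25.7 to 59.7 and 61.4 FPKM (log2 1.19, SE 0.05), but was -0.66 with GAPDH set equal.

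In the list of ubiquitin and E1 genes 4 of 6 were called higher and 1 lower, with a median of 1.12. RPS27A, which encodes ubiquitin fused to a ribosomal protein, went from 160.5 and 179 to 745 and 728 FPKM. Its log2 fold change of 2.12 lay above 0 under all 7 scalings, with a low of 0.26. UBB, a polyubiquitin gene, was at -0.61 and not called. UBA1, the main ubiquitin-activating enzyme, was called higher at 1.09 but was -0.77 with GAPDH set equal, and it was named after its value was seen. UBA6, the other ubiquitin-activating enzyme, fell from 6.25 and 7.31 to 2.26 and 1.75 FPKM (log2 -1.71, SE 0.17).

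The class I presentation genes, which use the peptides the proteasome makes, had 3 of 7 called higher and 1 lower, with a median of 0.51 held by TAPBP, which was -1.33 with GAPDH set equal. NLRC5, an activator of class I genes, was at 1.49 and 1.28 FPKM after GNE-987 and was listed at 0 in control, a mean at least 126-fold higher than the 3 reads that a count of 0 allows per control library. That bound was 74.6-fold after scaling to recovered reads and 34.9-fold with GAPDH set equal. B2M, the light chain of class I, rose from 29.5 and 28.4 to 119 and 113 FPKM (log2 2.00, SE 0.05), with a low of 0.15 over the scalings. TAP1, the peptide transporter subunit whose gene neighbours PSMB9, fell from 1.03 and 1.04 to 0.249 and 0.283 FPKM (log2 -1.64, SE 0.22, limma adjusted P 0.0041).

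**Figure D5:**
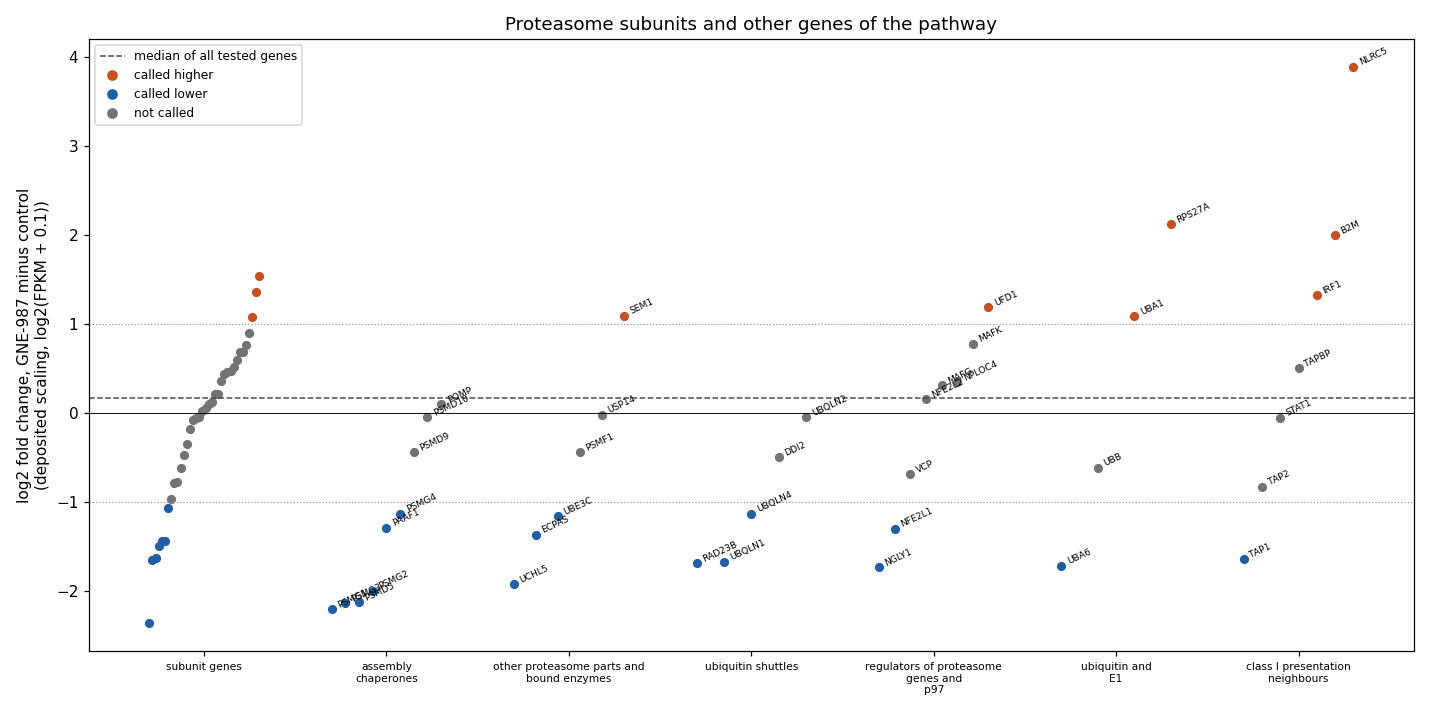
Log2 fold change at the deposited scaling, GNE-987 minus control, of the tested subunit genes and of genes in 6 other lists of the pathway, of which 3 tested genes are not drawn. Orange points were called higher, blue lower and grey not called, dotted lines mark a fold of 2 and the dashed line the median of all tested genes. In the assembly chaperone list 6 of 9 genes lie below -1, while RPS27A lies above 2. The plotted height of NLRC5 depends on the 0.1 FPKM added to its 0 in control, and its recovered reads were 154 and 140 in GNE-987 libraries. Of the genes called higher here only NLRC5 was also called higher with GAPDH scaling.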

How the data were processed

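RNA was extracted with Trizol and made into libraries with an Illumina TruSeq RNA kit, per the labels. The authors filtered the reads and mapped them with HISAT, and the submitters' processing notes name HISAT2 2.0.5 and hg38. The program that counted reads and its annotation are not given in the sources used here. The deposited values are FPKM, per gene and library, made by the authors. Their study called genes with DESeq2, which was not used here because FPKM are not counts. Of the 58735 identifiers, 58207 were matched to GENCODE release 44.

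The test was limma 3.58.1 (R 4.3.3) with an intensity trend and no replicate block, on log2(FPKM + 0.1) of the 16668 genes whose mean reached 0.5 FPKM. Reads were recovered with a tolerance of 0.01. At release 44 exon lengths the reads of 53.0% of expressed genes were whole numbers in all 4 libraries. For the remaining genes another length was searched, which is a weak check. Intervals from reads cover counting error only. Members, lists and the rule for naming genes (the largest calls, the ends of each class, the catalytic subunits, and up to 3 genes per other list plus NFE2L1, POMP, PSMF1, TAP1 and UBB) were chosen with earlier results of these data known. Some genes of these lists are counted but not reported by name. Alternatives were other scalings, pseudocounts, filters and thresholds, voom on recovered reads, a replicate block and leaving out each library.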

Additional observations from a re-analysis of the deposited data

How the results depend on the processing

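Scaling moved the results most. Members called higher and lower numbered 0 and 32 with GAPDH scaling, 0 and 26 with TPM rescaling, 0 and 13 with scaling to recovered reads and with voom on those reads, 2 and 9 after quantile normalization, 4 and 6 with median-ratio scaling and 7 and 6 with centring on protein-coding genes. The other pathway genes called higher and lower were 1 and 33 with GAPDH scaling, 1 and 31 with TPM rescaling, 4 and 22 with recovered reads and with voom, 3 and 20 after quantile normalization and 10 and 10 with centring. The median of the members was -1.80 (GAPDH), -1.42 (TPM), -0.74 (recovered reads), -0.74 (voom), -0.49 (quantile), 0.16 (median-ratio) and 0.43 (centring). Members below 0 numbered 17 at the deposited scaling, 36 (GAPDH), 35 (TPM), 32 (recovered reads, voom and quantile), 14 (median-ratio) and 12 (centring). Among the members named by the rule, the signs turned with GAPDH scaling for PSMA6 (-0.57), PSMB1 (-1.64), PSMB3 (-0.96), PSMB6 (-1.17), PSMB7 (-1.39), PSMC4 (-1.16), PSMD2 (-1.33), PSMD8 (-1.64), PSME1 (-0.31) and PSME2 (-0.49), and with TPM rescaling for PSMA6 (-0.23), PSMB1 (-1.25), PSMB3 (-0.57), PSMB6 (-0.79), PSMB7 (-1.01), PSMC4 (-0.78), PSMD2 (-0.95), PSMD8 (-1.25) and PSME2 (-0.11). Quantile normalization turned PSMB1 (-0.66), PSMB3 (-0.68), PSMB6 (-0.059), PSMB7 (-0.51), PSMC4 (-0.064), PSMD2 (-0.34) and PSMD8 (-0.52). Scaling to recovered reads and voom turned PSMB1 (-0.57 in both), PSMB6 (-0.10), PSMB7 (-0.32), PSMC4 (-0.094), PSMD2 (-0.26) and PSMD8 (-0.57). Of the same named members, centring turned PSMA4 (0.044) and PSMB10 (0.34), and median-ratio scaling PSMB10 (0.065). These shifts follow from the constants by which the scalings differ, except in quantile normalization, where the cause was not tested. With 0.1 FPKM added before the ratio, PSMB8 was 0.129% of PSMB5 in control and 0.302% in GNE-987 libraries, PSMB9 0.941% and 0.365% of PSMB6, and PSMB10 2.22% and 1.56% of PSMB7.

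Other pseudocounts, filters and thresholds gave 2 to 3 members called higher and 6 to 7 lower. PSMA6 and PSMD14 were the ones not called at a pseudocount of 1 or against a fold of 2, and PSMA6 was untested at a mean of at least 1 FPKM. Leaving out each library gave 3 higher and 7 to 8 lower, the added call being PSMB5 without GNE-987 replicate 1, and then the lone library of a group is taken to vary like the other group. With a replicate block 3 members were called higher and 7 lower, 9 and 16 of the other pathway genes, and 5667 and 4186 of all genes. Libraries with the same number did not deviate together (r = 0.01 over genes). With 2 libraries per group this cannot decide whether the number pairs them. The shallower GNE-987 libraries limit PSMA2, PSMA6, PSMB8 and PSMB9.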
